A study of Mus musculus with 6 samples.

Results

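Mature CD8 thymocytes deficient for both Tcf1 and Lef1 (genotype Tcf1-/-Lef1-/-, here DKO) were compared with wild type (WT) mature CD8 thymocytes across every gene of the deposited expression table. The comparison used 4 of the 6 mouse RNA-seq libraries of the series, 2 DKO and 2 WT, and the other 2 came from Tcf1-/- cells (Tcf1 KO). Cells of every genotype were sorted from thymus as TCRβ high, CD8+, CD69- and CD24-, which is the phenotype of thymocytes about to leave the organ. Per the design text, deletion was by CD4-Cre, a transgene in which Cd4 regulatory sequences drive the Cre recombinase, active from the double-positive stage onward. The sources used here give no ages, strains or number of mice behind a library. Since separate mice are not stated, p-values cover the spread of these libraries alone, and that spread may be technical. The table held 16383 genes in alphabetical order and ended at Pcsk5. Genes later in the alphabet, Tcf7 among them, were not analysed here.

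Tcf1 and Lef1 are closely related HMG-box transcription factors that bind the same DNA letters and can work with β-catenin or with Groucho-family repressors. They are needed from the earliest steps of T cell development, and in double-positive thymocytes they take part in the choice between the CD4 and CD8 lineages. A mature CD8 thymocyte is preparing to leave for the periphery as a naive T cell.

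The labels were first checked against transcripts they concern. Lef1 was at 131 and 130.2 FPKM in DKO, against 316 and 282 FPKM in WT, a log2 change of -1.19 ± 0.06 (adjusted p = 0.000157). Gene-level values include exons outside any deleted part, so this remaining signal does not measure intact Lef1 RNA. The T cell genes Cd3e (750.0 and 795 FPKM in the DKO libraries and 584 and 627 FPKM in the WT libraries) and Lck (498 and 502 FPKM in the DKO libraries and 488 and 497 FPKM in the WT libraries) were abundant throughout, as was Cd8a. Cd24a, whose product was used to gate cells out, was at 5.76 and 2.79 FPKM in DKO, against 3.23 and 2.61 FPKM in WT, and Cd69 was at 27.2 and 27.1 FPKM in DKO, against 39.4 and 36 FPKM in WT. Of the listed markers of other cells, 8 of 11 for B cells, 9 of 11 for myeloid cells, 6 of 8 for thymic stroma, 7 of 8 for erythroid cells and 5 of 12 for NK, NKT and γδ T cells stayed below the expression filter. Among these, Csf1r of macrophages reached at most 0.06 FPKM in a DKO or WT library, and Krt5 of epithelium and Ncr1 of NK cells were listed at 0 in all 4.

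The tested markers were not all low or alike. Those of B cells summed to 158 and 181 FPKM in the DKO libraries, against 164 and 174 FPKM in the WT libraries, most of it from Cd37, which T cells also express (136 and 156 FPKM in DKO, against 146 and 154 FPKM in WT). The summed level of the tested myeloid markers was 4.39 and 3.46 FPKM in the DKO libraries, against 4.93 and 4.26 FPKM in the WT libraries, that of the stromal markers 3.51 and 4.16 FPKM in the DKO libraries, against 1.57 and 1.97 FPKM in the WT libraries, and Car2, the 1 tested erythroid marker, was at 16.4 and 16.2 FPKM in DKO, against 10.1 and 10.1 FPKM in WT. The NK, NKT and γδ T cell markers summed to 444 and 462 FPKM in the DKO libraries, against 216 and 228 FPKM in the WT libraries. Of the 7 tested, 2 were higher and 3 lower, against 21.7% and 27.8% of all tested genes. Il18r1 (203 and 188 FPKM in DKO, against 9.12 and 10.7 FPKM in WT) and 5830411N06Rik (138 and 175 FPKM in DKO, against 13 and 18.2 FPKM in WT) were the higher ones, and Cd160 (1.42 and 1.65 FPKM in DKO, against 16.8 and 15.3 FPKM in WT), Klrd1 and Il2rb the lower ones. Markers of double-positive and immature thymocytes summed to 423 and 388 FPKM in the DKO libraries, against 242 and 225 FPKM in the WT libraries. Of the 11 tested, 6 were higher and 2 lower, against the same shares of all tested genes. Most of the sum came from the chemokine receptor Ccr9 (273 and 258 FPKM in DKO, against 124 and 121 FPKM in WT). The stromal, erythroid, NK, NKT and γδ, and immature sums were higher in both DKO libraries than in either WT library, and their part in the other differences was not tested.

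Of 6761 genes with at least 1 FPKM (a read density per transcript length and library size) in at least 2 of the 6 libraries, 1465 (21.7%) were higher and 1880 (27.8%) lower in DKO, so that 49.5% were called in either direction by limma at a Benjamini-Hochberg adjusted p under 0.05. At least 2-fold changes were fewer, with 244 genes (3.61%) higher and 397 (5.87%) lower, or 9.48% in all. All changes are given as log2 differences of FPKM + 1, which understates the change of weakly expressed genes, with their standard error from the fit of all 6 libraries. A gene below 1 FPKM in both DKO or both WT libraries passed the filter only through other libraries, which can partly set its direction. A gene that reached 1 FPKM in only 1 library of a group also needed other libraries to pass. Both limits apply to falls as well as rises, also where they are not repeated. Most calls were small, since 1973 of the 3345 were under 1.5-fold. The balance of higher and lower calls depended on scaling, with 43.8% of calls higher as deposited, 52.4% under median scaling and 52.8% under quantile scaling. The median change of all tested genes was -0.03 as deposited and 0.03 under either scaling. Large falls outnumbered large rises under the deposited scale: 133 genes fell by at least 2 on the log2 scale and 50 rose by as much. Leaving out WT replicate 1 gave 2219 called genes in all, and leaving out WT replicate 2 gave 2066.

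**Figure D1:**
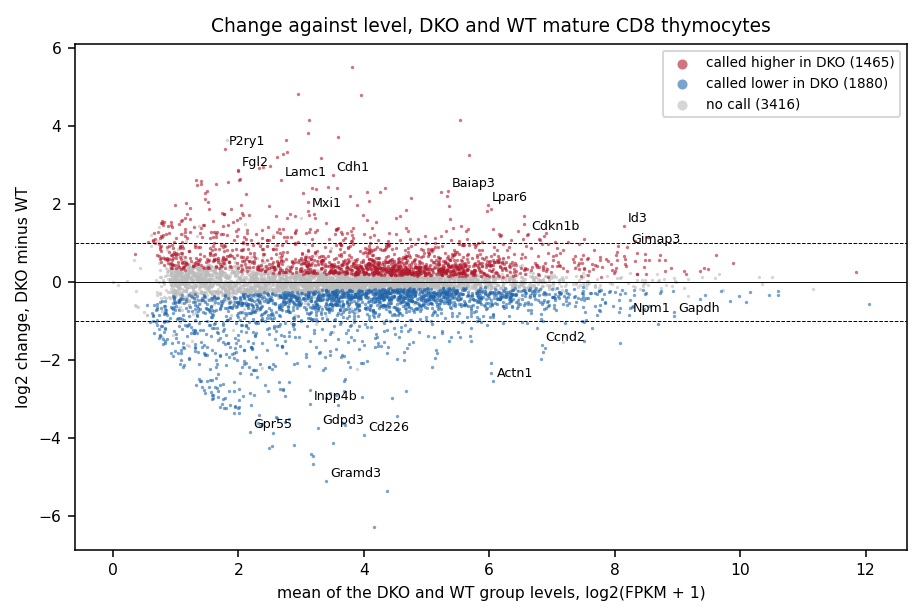
Log2 change (DKO minus WT) of each of 6761 tested genes against its mean level, with 1465 genes called higher in red, 1880 called lower in blue and the rest in grey. Dashed lines mark 2-fold changes, and the points below -2 outnumber those above 2.

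Genes of cell division fell almost without exception. Of 64 mitosis genes tested, 63 fell and 59 of these fell at least 2-fold, with a median log2 change of -2.59, against 27.8% of all tested genes lower and a median of -0.03. Cenpa, the histone variant of the centromere, was the member with no call, at 35.1 and 27.5 FPKM in DKO, against 42.6 and 39.7 FPKM in WT. The summed level of the list was 169.5 and 152 FPKM in the DKO libraries, against 981 and 898 FPKM in the WT libraries. The DKO sums lay far below the WT sums, and the Tcf1 KO sums of 637 and 449.6 FPKM lay between them. These are bulk libraries, in which fewer dividing cells and less RNA per dividing cell cannot be told apart.

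The falls covered several stages of division. Ccna2, the cyclin of S phase and G2, was at 0.42 and 0.29 FPKM in DKO, against 26 and 22 FPKM in WT, a change of -4.20 ± 0.21 (limma adjusted p = 0.00014). Ccnb2, a mitotic cyclin, was at 0.94 and 0.52 FPKM in DKO, against 30.9 and 29.9 FPKM in WT (-4.19 ± 0.20). Its kinase partner Cdk1 was at 0.36 and 0.24 FPKM in DKO, against 11.9 and 10.4 FPKM in WT (-3.22 ± 0.23). In each of these the DKO libraries were below 1 FPKM and far from both WT libraries. Among chromosome and spindle genes, Aurkb, the kinase of the chromosomal passenger complex, was at 0.45 and 0.38 FPKM in DKO, against 16.3 and 16.6 FPKM in WT (-3.63 ± 0.29). Its partner Birc5 (survivin) was at 1.93 and 1.5 FPKM in DKO, against 51.2 and 42.6 FPKM in WT (-4.14 ± 0.25). The spindle motor Kif11 (-3.58 ± 0.24), the checkpoint kinase Bub1b (-3.49 ± 0.20), the condensin subunit Ncapg (-3.24 ± 0.18) and Espl1, the separase that cuts cohesin (-3.23 ± 0.22), fell by similar amounts. The smallest call in the list was Ncapd3, another condensin subunit, at -0.21, and its call was lost when WT replicate 1 (limma adjusted p = 0.0962) or WT replicate 2 was left out (0.0768) and under median scaling (0.0529).

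Promoter sequences of 4 of these genes are shown. Many mitotic promoters carry a cell cycle homology region (TTTGAA or TTCGAA) near CCAAT boxes, which are read by the DREAM and NF-Y complexes. The 4 sequences were picked from windows that hold both motifs, so they do not show how common the motifs are. The windows are the 250 bases before the gene start in RefSeq on GRCm38.p6, printed 5′ to 3′ on the gene's strand, with capitals marking either motif on either strand. They lie at chr7:135716380-135716629 (minus strand) for Mki67, chr9:70421555-70421804 (minus strand) for Ccnb2, chr3:89418292-89418541 (minus strand) for Cks1b and chr19:37376132-37376381 (plus strand) for Kif11.
Mki67: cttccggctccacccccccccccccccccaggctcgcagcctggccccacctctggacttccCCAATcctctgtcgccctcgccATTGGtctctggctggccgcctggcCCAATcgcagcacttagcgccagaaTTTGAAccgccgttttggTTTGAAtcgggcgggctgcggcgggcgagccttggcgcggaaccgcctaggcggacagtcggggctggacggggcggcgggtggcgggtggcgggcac
Ccnb2: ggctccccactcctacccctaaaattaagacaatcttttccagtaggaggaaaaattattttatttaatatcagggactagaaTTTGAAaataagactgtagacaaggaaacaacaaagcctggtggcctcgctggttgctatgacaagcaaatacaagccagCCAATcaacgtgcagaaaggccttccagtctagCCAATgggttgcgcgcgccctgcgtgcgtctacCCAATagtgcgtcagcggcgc
Cks1b: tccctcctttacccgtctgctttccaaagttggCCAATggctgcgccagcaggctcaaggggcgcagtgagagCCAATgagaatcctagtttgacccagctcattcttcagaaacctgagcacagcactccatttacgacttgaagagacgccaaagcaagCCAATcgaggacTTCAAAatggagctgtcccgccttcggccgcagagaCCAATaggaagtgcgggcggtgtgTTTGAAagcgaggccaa
Kif11: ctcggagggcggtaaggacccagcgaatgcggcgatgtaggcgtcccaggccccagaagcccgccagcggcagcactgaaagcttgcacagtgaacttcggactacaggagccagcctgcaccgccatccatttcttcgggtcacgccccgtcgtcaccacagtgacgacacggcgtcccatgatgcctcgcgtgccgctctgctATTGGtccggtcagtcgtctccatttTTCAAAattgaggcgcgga
Windows were found for 54 of the 64 mitosis genes, 59 windows in all. The cell cycle homology letters were in 37.3% of them, against 17.1% of all 32851 promoter windows, and CCAAT was in 67.8%, against 33.8%. Both stood together in 28.8% of the mitosis windows and in 6.02% of all windows. The letters CTTTGAT or CTTTGAA, a short form of the Tcf and Lef site that overlaps TTTGAA, were in 6.78% of the mitosis windows (4 of 59) and 7.48% of all windows. All windows include those of genes not tested here, so they are not a matched background. These are matches of letters and not binding sites. A comparison was read only where at least 80% of a set's genes had a window, which held for 84.4% of the mitosis genes. Of the genes at least 2-fold higher 70.1% had one, and of those at least 2-fold lower 79.1%, so their shares are not given.

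DNA replication genes fell as well, with 42 of 46 lower and a median of -1.38, against 27.8% and -0.03 over all tested genes. E2f1, a transcription factor of S phase entry, was at 1.52 and 1.35 FPKM in DKO, against 17.6 and 17.5 FPKM in WT (-2.93 ± 0.12). Mcm10, which helps start replication forks, was at 0.1 and 0.07 FPKM in DKO, against 6.84 and 7.48 FPKM in WT (-2.91 ± 0.14). Dtl, the adaptor that marks Cdt1 for destruction, was at 0.08 and 0.07 FPKM in DKO, against 8.55 and 9.46 FPKM in WT (-3.22 ± 0.18). Of the helicase ring genes Mcm2 to Mcm7, Mcm5 fell most (17.7 and 18.3 FPKM in DKO, against 66.1 and 66.9 FPKM in WT, -1.83 ± 0.08) and Mcm6 least (49.2 and 48.5 FPKM in DKO, against 86.4 and 91 FPKM in WT, -0.85 ± 0.08). Cdt1 itself, the licensing factor, had the only positive call of the list, at 43.1 and 46.5 FPKM in DKO, against 38.5 and 39.6 FPKM in WT (0.19 ± 0.06, adjusted p = 0.0318). That call ended when any library other than DKO replicate 1 was left out, with limma adjusted p from 0.0569 to 0.149.

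Regulators of the G1 phase moved in both directions, with 5 of 18 higher and 8 lower, against 21.7% and 27.8% of all tested genes. Cyclins E1 and E2, which drive entry into S phase, fell: Ccne1 was at 5.69 and 5.56 FPKM in DKO, against 23 and 23.1 FPKM in WT (-1.86 ± 0.06), and Ccne2 changed by -1.77 ± 0.13. Ccnd2, a D-type cyclin, was at 73.4 and 55.8 FPKM in DKO, against 202 and 195 FPKM in WT (-1.62 ± 0.13), whereas its relative Ccnd3 was at 164 and 165 FPKM in DKO, against 169.7 and 164 FPKM in WT (-0.02 ± 0.06, adjusted p = 0.801). Antiproliferative genes were among the risers. Cdkn1b, the inhibitor p27, was at 166 and 134 FPKM in DKO, against 63.2 and 61.5 FPKM in WT (1.24 ± 0.10), Btg2 was at 149 and 143 FPKM in DKO, against 61.5 and 64.8 FPKM in WT (1.20 ± 0.05), and Btg3 changed by 1.25 ± 0.15. Another cyclin-dependent kinase inhibitor, Cdkn2c, went the other way, at 1.89 and 3.37 FPKM in DKO, against 11.1 and 12.2 FPKM in WT (-1.83 ± 0.20).

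Chromatin proteins that accompany division fell too. In the list of high mobility group and lamina genes 12 of 20 were lower and 2 higher, against 27.8% and 21.7% of all tested genes, with a median of -0.50. Hmgb2, a DNA-bending protein of proliferating cells, was at 29.2 and 27 FPKM in DKO, against 149 and 139.6 FPKM in WT (-2.32 ± 0.16), Hmgn2, a nucleosome binder, was at 116 and 99.5 FPKM in DKO, against 318 and 293 FPKM in WT (-1.50 ± 0.11). The lamin Lmnb1 was at 27.9 and 27 FPKM in DKO, against 75.2 and 73.4 FPKM in WT (-1.41 ± 0.12). The DKO libraries of all 3 lay well below both WT libraries. Of 33 tested histone genes, 15 fell, each at least 2-fold, against 5.87% of all tested genes lower by as much. Among them were Hist1h2ag (-3.20 ± 0.33) and Hist1h3c, which was listed at 0 in both DKO libraries and at 6.4 and 4.26 FPKM in WT. Histone genes are nearly identical in sequence, and RSEM divides shared reads among them, so single values are uncertain.

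**Figure D2:**
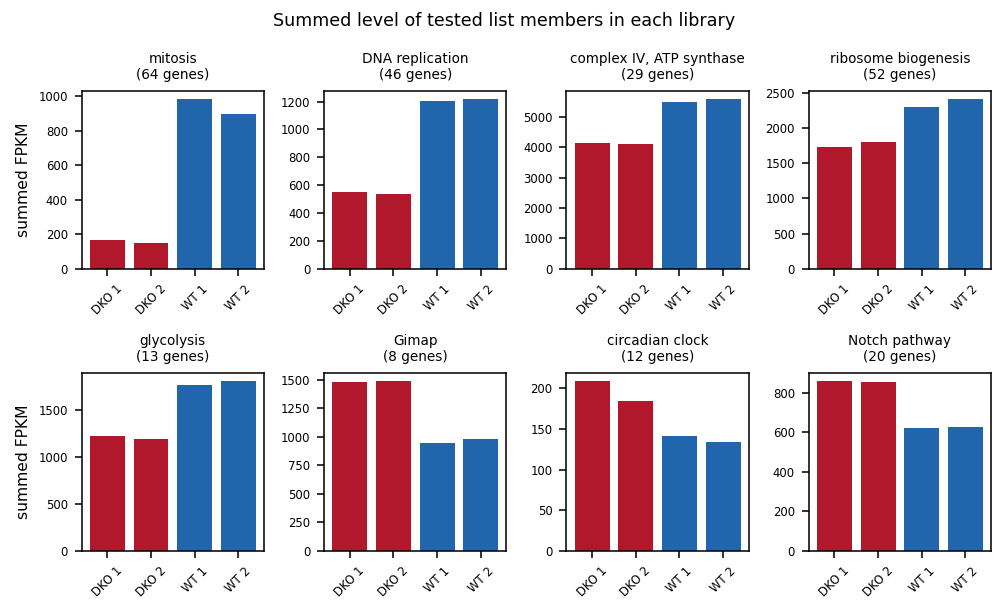
Summed FPKM of the tested members of 8 gene lists in each DKO library (red) and each WT library (blue), with every axis starting at 0. The mitosis sums are 170 and 152 FPKM in DKO and 981 and 898 FPKM in WT, and the sums of the Gimap, clock and Notch lists are higher in both DKO libraries than in either WT library.

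Enzymes of nucleotide synthesis fell in 26 of 38 cases, against 27.8% of all tested genes, and rose in 2, with a median of -0.50. Dut, which keeps uracil out of DNA, was at 11.1 and 9.48 FPKM in DKO, against 27.4 and 31 FPKM in WT (-1.42 ± 0.10). Nme4, a mitochondrial nucleoside diphosphate kinase, had the largest fall of the list, at 0.26 and 0.17 FPKM in DKO, against 8.06 and 6.8 FPKM in WT (-2.79 ± 0.12). Cad, which begins pyrimidine synthesis, was at 9.08 and 11.1 FPKM in DKO, against 22.2 and 25.4 FPKM in WT (-1.17 ± 0.11). Impdh2, which commits purines to GTP, was at 42 and 44.4 FPKM in DKO, against 78.2 and 80.2 FPKM in WT (-0.86 ± 0.06). Ctps2, a CTP synthase, rose to 23.5 and 25.6 FPKM in DKO, against 16.8 and 16 FPKM in WT (0.55 ± 0.07), while its paralog Ctps was at 6.87 and 8.68 FPKM in DKO, against 15.8 and 17.7 FPKM in WT (-1.02 ± 0.12). In the mitochondrial one-carbon pathway, Mthfd2 was at 4.32 and 4.2 FPKM in DKO, against 18 and 16.6 FPKM in WT (-1.80 ± 0.07).

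Smaller but widely shared falls were found in families of energy metabolism and protein synthesis, where no gene changed 2-fold. Over all tested genes, 27.8% were lower and 21.7% higher, with a median of -0.03. In respiratory complex IV and ATP synthase, 26 of 29 genes fell and no gene was called higher, with a median of -0.43. Atp5e, the epsilon subunit of ATP synthase, was at 241 and 239 FPKM in DKO, against 374 and 388 FPKM in WT (-0.66 ± 0.04). Cox7a2, a cytochrome c oxidase subunit, was at 51.3 and 43.8 FPKM in DKO, against 78.5 and 75 FPKM in WT (-0.68 ± 0.09). The members' summed level was 4131 and 4099 FPKM in the DKO libraries, against 5484 and 5582 FPKM in the WT libraries. In complex I, 34 of 44 genes fell and 1 rose (median -0.34), for example Ndufc2 at 40 and 42.9 FPKM in DKO, against 68.9 and 72 FPKM in WT (-0.75 ± 0.05). Of 77 mitochondrial ribosomal protein genes, 54 fell and 2 rose (median -0.35), led by Mrpl52 at 39.1 and 41.6 FPKM in DKO, against 73 and 77.6 FPKM in WT (-0.88 ± 0.06). The count of falls in this last list was 29 without WT replicate 2.

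Cytoplasmic translation shifted the same way. Of 52 ribosome biogenesis and nucleolar genes, 36 fell and no gene was called higher (median -0.35), against 27.8% and 21.7% of all tested genes. Npm1, an abundant nucleolar chaperone, was at 218 and 224 FPKM in DKO, against 385 and 418 FPKM in WT (-0.86 ± 0.07). Nop58, a core protein of box C/D snoRNPs, was at 32.7 and 34.9 FPKM in DKO, against 59.6 and 60.1 FPKM in WT (-0.81 ± 0.05). Among translation factors 37 of 61 fell and 3 rose (median -0.28), with Eef1b2, an exchange factor for eEF1A, at 193 and 216 FPKM in DKO, against 342 and 357 FPKM in WT (-0.77 ± 0.06) and Eif3e at 101 and 104 FPKM in DKO, against 162 and 166 FPKM in WT (-0.67 ± 0.05). Myc, a transcription factor that activates many such genes, was at 21 and 25.4 FPKM in DKO, against 52.8 and 64.2 FPKM in WT (-1.29 ± 0.12). Other members of the Myc and Max network moved apart: Mxd3 was at 0.44 and 0.13 FPKM in DKO, against 25.6 and 21.6 FPKM in WT (-4.27 ± 0.20). Mxi1, which antagonises Myc, was at 16.8 and 13.6 FPKM in DKO, against 4.04 and 3.11 FPKM in WT (1.82 ± 0.14). Medians of these families stayed negative under median and quantile scaling, between -0.23 and -0.39.

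Glycolysis was split. Gapdh was at 377 and 350.4 FPKM in DKO, against 658 and 678 FPKM in WT (-0.88 ± 0.08). Ldha, which makes lactate, was at 221 and 206 FPKM in DKO, against 346 and 338 FPKM in WT (-0.68 ± 0.07). Of 13 list members 9 fell and 2 rose (median -0.34), against 27.8% and 21.7% of all tested genes. Ldhb, the lactate dehydrogenase subunit that favours pyruvate, rose to 42.4 and 35 FPKM in DKO, against 20.4 and 17.6 FPKM in WT (0.99 ± 0.11). Bpgm, which makes 2,3-bisphosphoglycerate, was at 15.3 and 18.9 FPKM in DKO, against 8.29 and 9.51 FPKM in WT (0.87 ± 0.12). Eno1 fell (249 and 254 FPKM in the DKO libraries and 376 and 393 FPKM in the WT libraries, -0.61 ± 0.05). Eno1b, which is not on the list, rose (41.2 and 39.6 FPKM in the DKO libraries and 4.82 and 11.1 FPKM in the WT libraries, 2.31 ± 0.32). Eno1 and Eno1b are near-identical copies whose reads are shared, and both values are uncertain. Fasn, the fatty acid synthase, was at 13.8 and 16.9 FPKM in DKO, against 29.6 and 32.9 FPKM in WT (-0.98 ± 0.11). Acaca, which makes its substrate, was at 2.65 and 3.31 FPKM in DKO, against 6.26 and 6.73 FPKM in WT (-0.92 ± 0.11).

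**Figure D3:**
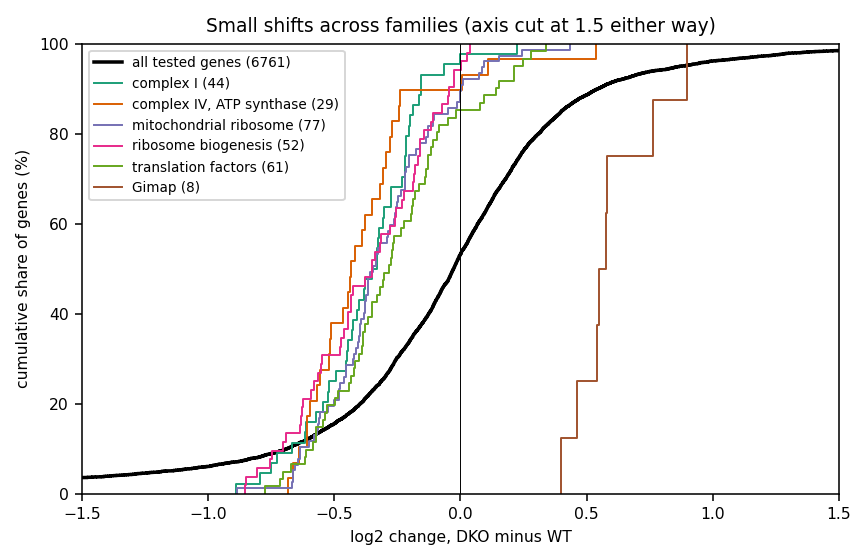
Cumulative share of genes (percent) by log2 change (DKO minus WT) for 6 gene families and for all 6761 tested genes in black, with the axis limited to 1.5 on either side. The curves of complex I, complex IV with ATP synthase, mitochondrial ribosome, ribosome biogenesis and translation factors lie left of all genes except in the lower tail, and that of the Gimap family lies to the right.

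The leading rises outside the well known lineage genes included surface, matrix and secreted products. P2ry1, an ADP receptor of the G protein-coupled class, had 6.46 and 14.8 FPKM in DKO, against 0.01 and 0.03 FPKM in WT (3.41 ± 0.34). Cdh1, which encodes E-cadherin, had 18.4 and 40.3 FPKM in DKO, against 2.56 and 3.93 FPKM in WT (2.76 ± 0.38). The DKO libraries of both genes differed more than 2-fold from each other, and each lay above both WT libraries. Fgl2, a secreted fibrinogen-like protein, was at 7.61 and 12.2 FPKM in DKO, against 0.39 and 0.52 FPKM in WT (2.88 ± 0.21). Lamc1, the laminin gamma 1 chain, was at 14.1 and 15.7 FPKM in DKO, against 1.61 and 1.54 FPKM in WT (2.62 ± 0.08). Pcsk1, a proprotein convertase of secretory granules, was at 7.7 and 10.5 FPKM in DKO, against 0.62 and 0.62 FPKM in WT (2.63 ± 0.16). Ddr1, a receptor tyrosine kinase for collagen, was at 4.82 and 5.8 FPKM in DKO, against 0.26 and 0.25 FPKM in WT (2.33 ± 0.13). Fst, the activin inhibitor follistatin, was at 6.64 and 3.63 FPKM in DKO, against 0.1 and 0.01 FPKM in WT (2.50 ± 0.24). P2ry1, Fgl2, Pcsk1, Ddr1 and Fst passed the filter on low values only through libraries other than WT. Their direction was partly set by it.

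Other leading rises included intracellular regulators. Ier3, an immediate early response gene, was at 12.8 and 14.3 FPKM in DKO, against 1 and 0.75 FPKM in WT (2.96 ± 0.12, limma adjusted p = 8.87e-05). Arhgap23, a GTPase-activating protein, was near 0 in WT, with 5.62 and 5.03 FPKM in DKO, against 0.1 and 0.1 FPKM in WT (2.52 ± 0.11). Baiap3, a Munc13-related exocytosis protein, was the most abundant of them, with 83.5 and 96.5 FPKM in DKO, against 17.2 and 17 FPKM in WT (2.33 ± 0.09). Arhgap23 passed the filter on low values only through libraries other than WT, which partly set its direction. Ier3 reached 1 FPKM in WT replicate 1 but not in WT replicate 2, so it also needed other libraries to pass. G0s2, an inhibitor of the triglyceride lipase ATGL, was at 41.5 and 49.9 FPKM in DKO, against 7.03 and 8.55 FPKM in WT (2.41 ± 0.13), Acsbg1, an acyl-CoA synthetase, was at 30.4 and 42.4 FPKM in DKO, against 5.98 and 6.78 FPKM in WT (2.32 ± 0.16). Dapk1, a death-associated kinase, was at 17.9 and 16.3 FPKM in DKO, against 2.76 and 2.64 FPKM in WT (2.29 ± 0.12). Gzmc rose by 2.65 ± 0.14 and Klrb1f by 2.26 ± 0.21, but both have close relatives that can share reads, so these values are uncertain. Of the 60 leading rises and falls, 58 kept their call under every alternative, and the exceptions were Gcnt4, whose call ended without the filter on low values, and Ifi204, whose call ended under 7 alternatives.

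**Figure D4:**
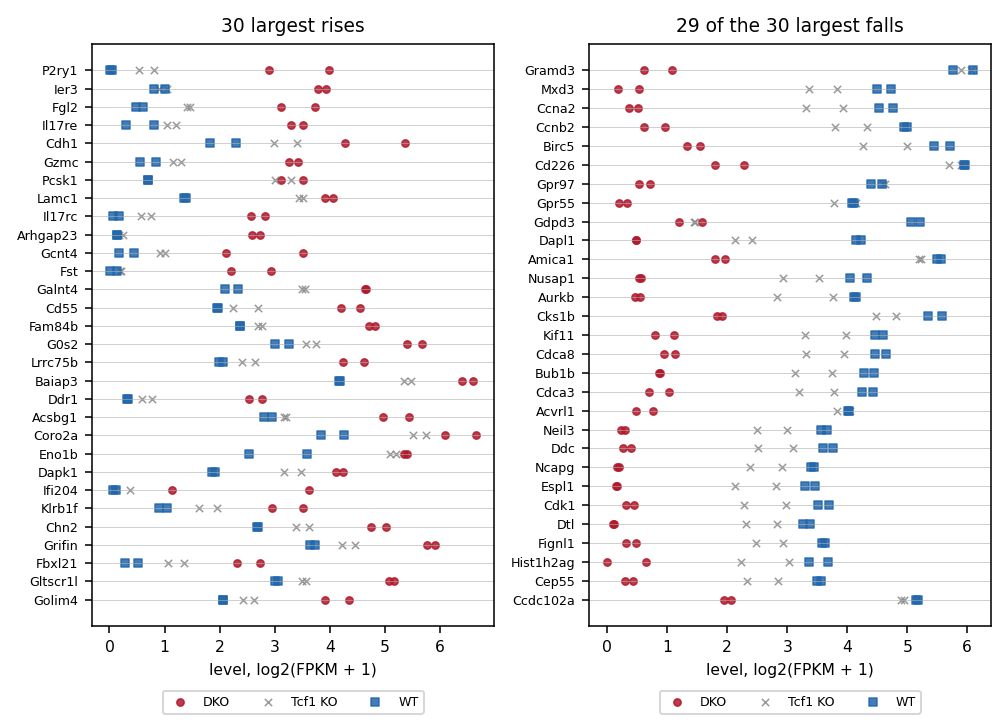
Level in each library, as log2(FPKM + 1), of the 30 largest rises and 29 of the 30 largest falls, provisional models and well known lineage genes left out, in DKO (red circles) and WT (blue squares) cells, with Tcf1 KO libraries as grey crosses. DKO and WT symbols do not overlap for any gene shown, which is part of how these genes were chosen.

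The leading falls outside the cell cycle included several receptors. Gramd3, a GRAM domain protein, was at 1.1 and 0.52 FPKM in DKO, against 67.4 and 53.5 FPKM in WT (-5.10 ± 0.18). Amica1, the junctional adhesion molecule JAML, was at 2.45 and 2.88 FPKM in DKO, against 44.1 and 46.1 FPKM in WT (-3.66 ± 0.07). Gpr55, a receptor for lysophospholipids, was at 0.15 and 0.25 FPKM in DKO, against 16.4 and 15.9 FPKM in WT (-3.84 ± 0.13). The adhesion-class receptor Gpr97 was at 0.44 and 0.64 FPKM in DKO, against 22.8 and 20.1 FPKM in WT (-3.87 ± 0.10). Acvrl1, a type I receptor of the TGFβ family, was at 0.69 and 0.39 FPKM in DKO, against 15.3 and 15.1 FPKM in WT (-3.40 ± 0.13). Among enzymes, Gdpd3, a glycerophosphodiester phosphodiesterase, was at 1.29 and 1.99 FPKM in DKO, against 36.1 and 32.4 FPKM in WT (-3.75 ± 0.14), Ddc, which decarboxylates dopa, was at 0.32 and 0.2 FPKM in DKO, against 12.6 and 11.1 FPKM in WT (-3.35 ± 0.20). Acot7, an acyl-CoA thioesterase, was at 2.42 and 2.26 FPKM in DKO, against 18.6 and 25.7 FPKM in WT (-2.78 ± 0.25). Anxa5, a phospholipid-binding annexin, was at 4.26 and 3.5 FPKM in DKO, against 30.6 and 35.6 FPKM in WT (-2.81 ± 0.11), and Dapl1 was at 0.4 FPKM in both DKO libraries, against 16.8 and 17.7 FPKM in WT (-3.70 ± 0.12). Gpr55, Gpr97, Acvrl1, Ddc and Dapl1 passed the filter on low values only through libraries other than DKO, which partly set their direction.

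Several of these genes differed in Tcf1 KO cells, which are set against the same WT libraries. Gdpd3 was at 1.71 and 1.76 FPKM in Tcf1 KO, close to its DKO level, and so was Pcsk1 (8.84 and 7.07 FPKM). Lamc1 (10.4 and 9.9 FPKM) lay between its WT and DKO levels. Gramd3 (65.8 and 58.3 FPKM), Gpr97 (23.8 and 23.3 FPKM), Gpr55 (12.7 and 16.6 FPKM) and Acvrl1 (13.2 and 15.5 FPKM) were close to WT in Tcf1 KO. Ier3 (0.87 and 1.06 FPKM) and Arhgap23 (0.13 and 0.18 FPKM) were also near their WT levels there. These are levels, and no difference between DKO and Tcf1 KO was tested here.

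Cytokine receptor genes moved in both directions. Of 35 tested, 19 were higher and 9 lower, against 21.7% and 27.8% of all tested genes. Among them were subunits of the interleukin-17 receptor family, named here as a family after their values were seen: Il17ra was at 192 and 159 FPKM in DKO, against 77 and 75.7 FPKM in WT (1.18 ± 0.09), Il17rb at 5.27 and 5.22 FPKM in DKO, against 1 and 0.7 FPKM in WT (1.76 ± 0.17), Il17rc at 4.93 and 6.07 FPKM in DKO, against 0.12 and 0.04 FPKM in WT (2.58 ± 0.14) and Il17re at 8.82 and 10.5 FPKM in DKO, against 0.75 and 0.23 FPKM in WT (2.86 ± 0.19). Il17rc and Il17re passed the filter on low values only through libraries other than WT, so that their direction was partly set by it. Il17rb reached 1 FPKM in WT replicate 1 but not in WT replicate 2, so it also needed other libraries to pass. The NK, NKT and γδ T cell marker sums were higher in the same libraries, and their part was not tested. Il4ra (55.8 and 76.1 FPKM in DKO, against 32.2 and 34.3 FPKM in WT, 0.95 ± 0.14), Il10ra (18.4 and 15.2 FPKM in DKO, against 6.92 and 6.18 FPKM in WT, 1.23 ± 0.13) and Ifnar1 (73.3 and 78.8 FPKM in DKO, against 37.9 and 40.1 FPKM in WT, 0.95 ± 0.06) also rose. Both chains of the interleukin-6 receptor fell, with Il6ra at 9.99 and 11.4 FPKM in DKO, against 35.6 and 30.9 FPKM in WT (-1.55 ± 0.13) and the shared signalling chain Il6st at 14.8 and 15.4 FPKM in DKO, against 41.3 and 50.9 FPKM in WT (-1.54 ± 0.14). Il12rb1 (-0.59 ± 0.10) and Il12rb2 (-1.10 ± 0.11), the interleukin-12 receptor pair, fell, and Kit, the stem cell factor receptor, was at 0.21 and 0.23 FPKM in DKO, against 2.91 and 2.92 FPKM in WT (-1.68 ± 0.10).

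Receptors for small molecules changed in both directions. Lpar6, a lysophosphatidic acid receptor, was at 121 and 128 FPKM in DKO, against 28 and 33.7 FPKM in WT (1.98 ± 0.09). Gpr183, which senses oxysterols, was at 11.9 and 13 FPKM in DKO, against 3.19 and 3.16 FPKM in WT (1.69 ± 0.12). Adora2a, an adenosine receptor, was at 14.1 and 12.4 FPKM in DKO, against 4.67 and 4.38 FPKM in WT (1.36 ± 0.09), whereas Nt5e, the ectoenzyme CD73 that makes adenosine, was at 6.11 and 7.26 FPKM in DKO, against 15.2 and 12.4 FPKM in WT (-0.95 ± 0.12). Nt5e stood at 49.2 and 46 FPKM in Tcf1 KO, above both other genotypes. Cd38, an NAD-consuming ectoenzyme, was at 0.47 and 0.6 FPKM in DKO, against 2.27 and 2.38 FPKM in WT (-1.12 ± 0.11). Dpp4, the peptidase that binds adenosine deaminase in humans, was at 28.8 and 26.7 FPKM in DKO, against 49.1 and 48 FPKM in WT (-0.79 ± 0.05). Among calcium channel genes, Orai2 was at 169 and 172 FPKM in DKO, against 86.5 and 85.3 FPKM in WT (0.98 ± 0.08) and Orai3 at 6.42 and 8.21 FPKM in DKO, against 14.6 and 15.6 FPKM in WT (-0.96 ± 0.13).

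Insulin and phosphoinositide signalling genes changed at several steps. The receptor Insr was at 12.5 and 13.8 FPKM in DKO, against 6.86 and 6.35 FPKM in WT (0.90 ± 0.08). Its adaptor Irs2 was at 12.4 and 12.9 FPKM in DKO, against 4.54 and 4.73 FPKM in WT (1.28 ± 0.09). Inpp4b, a phosphatase that removes the PI3K product PI(3,4)P2, was at 1.96 and 2.03 FPKM in DKO, against 26.5 and 23.8 FPKM in WT (-3.12 ± 0.08). Ddit4, an inhibitor of mTORC1, was at 79.7 and 45.5 FPKM in DKO, against 235 and 188 FPKM in WT (-1.78 ± 0.26), with the DKO libraries apart from each other but below both WT libraries. Of 24 NF-κB and NFAT genes 7 rose and 5 fell, with a median of 0.08, against 21.7% and 27.8% of all tested genes. The 50% called was near the 49.5% of all tested genes, and fewer rose when either WT library was left out. Bcl3, a nuclear IκB protein, was at 7.88 and 8.56 FPKM in DKO, against 27.2 and 23.6 FPKM in WT (-1.52 ± 0.08). Nfkb1 was at 47.1 and 50 FPKM in DKO, against 75.7 and 70.8 FPKM in WT (-0.58 ± 0.06). The kinase Ikbkb, which activates NF-κB, was at 77.9 and 85.3 FPKM in DKO, against 63.9 and 60.4 FPKM in WT (0.39 ± 0.06), and Nfatc3, a calcium-regulated factor, was at 59.1 and 57.3 FPKM in DKO, against 42.8 and 43.8 FPKM in WT (0.42 ± 0.04). The stress kinase Map3k5 was at 1.32 and 1.3 FPKM in DKO, against 6.71 and 6.85 FPKM in WT (-1.75 ± 0.08). Map4k2, an abundant upstream kinase, was at 349 and 333 FPKM in DKO, against 207 and 192 FPKM in WT (0.77 ± 0.06).

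Transcription factor families were split. The inhibitors of E proteins went in opposite directions: Id2 was at 19.4 and 11.1 FPKM in DKO, against 70.1 and 69.7 FPKM in WT (-2.17 ± 0.29). Id3 was at 533 and 404 FPKM in DKO, against 155 and 187 FPKM in WT (1.44 ± 0.15). Of 13 Kruppel-like and Ikaros factors, 7 rose and 4 fell, against 21.7% and 27.8% of all tested genes, and 4 rose without the filter on low values. Klf3, a repressor, was at 151 and 163 FPKM in DKO, against 53.2 and 57 FPKM in WT (1.49 ± 0.09), and Klf6 at 27.8 and 24.7 FPKM in DKO, against 11 and 10.7 FPKM in WT (1.20 ± 0.08), whereas Klf10, which is induced by TGFβ, was at 5.68 and 3.82 FPKM in DKO, against 10.5 and 10 FPKM in WT (-0.98 ± 0.16). In the ETS family 7 of 14 rose and no gene was called lower, against 21.7% and 27.8% of all tested genes. Etv5 led these rises, at 3.71 and 3.82 FPKM in DKO, against 0.93 and 0.98 FPKM in WT (1.29 ± 0.10). It passed the filter on low values only through libraries other than WT, which partly set its direction. Forkhead factors rose in 7 of 15 cases, against 21.7% of all tested genes, among them Foxn3 (0.86 ± 0.07), Foxo4 (0.65 ± 0.05) and Foxp1 (0.53 ± 0.07), a factor of T cell quiescence at 55.4 and 55.9 FPKM in DKO, against 40.4 and 36 FPKM in WT. Without WT replicate 2 the forkhead rises numbered 4. Foxm1, which drives mitotic genes, fell to 2.34 and 2.82 FPKM in DKO, against 15.4 and 13.2 FPKM in WT (-2.09 ± 0.19).

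Circadian clock genes were higher in 10 of 12 cases, against 21.7% of all tested genes, with a median of 0.71, and no gene was called lower. Hlf, a PAR bZIP output factor, was at 1.89 and 2.11 FPKM in DKO, against 0.04 and 0.03 FPKM in WT (1.53 ± 0.12). It passed the filter on low values only through libraries other than WT, which partly set its direction. The nuclear receptors Nr1d1 (3.29 and 3.38 FPKM in DKO, against 1.01 and 0.94 FPKM in WT, 1.13 ± 0.15) and Nr1d2 (8.62 and 8.77 FPKM in DKO, against 3.94 and 3.47 FPKM in WT, 1.04 ± 0.10), which repress Arntl, rose, and Arntl itself was at 24.3 and 17.9 FPKM in DKO, against 12.4 and 11.6 FPKM in WT (0.75 ± 0.14). The call of Arntl ended without WT replicate 2 (limma adjusted p = 0.0521). Clock, the partner of Arntl, was at 3.09 and 3.6 FPKM in DKO, against 3.66 and 3.86 FPKM in WT (-0.13 ± 0.11, adjusted p = 0.341). The count of rises was 7 without WT replicate 1, 5 without WT replicate 2 and 5 without the filter on low values. The sources used here give no times of collection.

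Notch pathway genes were higher in 12 of 20 cases (median 0.46), against 21.7% of all tested genes. The immature thymocyte markers, whose sums are given above, were also higher, and their part was not tested. Notch3, a receptor of early thymocytes, was at 6.36 and 4.11 FPKM in DKO, against 1.49 and 1.43 FPKM in WT (1.32 ± 0.18). Dtx1, a ubiquitin ligase and Notch target, was at 132 and 139 FPKM in DKO, against 64.7 and 60.5 FPKM in WT (1.10 ± 0.11). The coactivators Maml2 (0.75 ± 0.06) and Maml3 (1.19 ± 0.11) rose, and Lfng, the glycosyltransferase that tunes Notch receptors, was at 287 and 283 FPKM in DKO, against 188 and 202 FPKM in WT (0.55 ± 0.05). The 3 falls of the list, Hey1, Notch1 and Dtx3, all lost their calls without DKO replicate 2 (limma adjusted p = 0.0755, 0.11 and 0.0652) and without WT replicate 1 (0.113, 0.13 and 0.129), and Hey1 alone kept its call without WT replicate 2. In the Wnt pathway, through which both deleted factors can act, 4 of 21 genes rose and 7 fell, shares near the 21.7% and 27.8% of all tested genes. Median scaling turned the balance to 8 higher and 5 lower, and quantile scaling to 7 and 6. Only 4 genes fell without WT replicate 2 or without the filter on low values. Axin2, a feedback inhibitor and common Wnt target, was at 21 and 20.5 FPKM in DKO, against 7.48 and 8.14 FPKM in WT (1.30 ± 0.08), Bcl9l, a β-catenin cofactor, was at 74.5 and 84.8 FPKM in DKO, against 37.3 and 40.6 FPKM in WT (1.01 ± 0.10). Nlk, a kinase that phosphorylates Tcf and Lef proteins, was at 22.8 and 21.7 FPKM in DKO, against 36.5 and 35.2 FPKM in WT (-0.66 ± 0.06).

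Among histone modifiers and remodellers 34 of 80 rose and 8 fell, with small changes (median 0.10), against 21.7% and 27.8% of all tested genes. Arid3b was at 42.3 and 41.7 FPKM in DKO, against 19.8 and 17.9 FPKM in WT (1.12 ± 0.07). The bromodomain protein Brpf3 was at 22.1 and 22.1 FPKM in DKO, against 12 and 11.7 FPKM in WT (0.85 ± 0.06). Falls included the remodeller Chd7 (9.57 and 8.46 FPKM in DKO, against 16.7 and 18.1 FPKM in WT, -0.88 ± 0.08) and the H3K27 demethylase Kdm6b (24.1 and 22.5 FPKM in DKO, against 36.2 and 35.7 FPKM in WT, -0.61 ± 0.05). The counts were 19 higher and 5 lower without WT replicate 2, and 24 and 5 without WT replicate 1. The H3K27 methyltransferases diverged, with Ezh2 at 16.5 and 13 FPKM in DKO, against 38 and 34.3 FPKM in WT (-1.24 ± 0.14) and Ezh1 at 24.5 and 24.8 FPKM in DKO, against 19.3 and 17.8 FPKM in WT (0.39 ± 0.07). The DNA methyltransferases Dnmt1 (50.7 and 55.5 FPKM in DKO, against 77.1 and 77.6 FPKM in WT, -0.54 ± 0.07) and Dnmt3a (15.2 and 15.3 FPKM in DKO, against 28.1 and 28.4 FPKM in WT, -0.85 ± 0.05) fell, and Cbx7, a Polycomb reader, was at 66.2 and 78.9 FPKM in DKO, against 35.9 and 30.5 FPKM in WT (1.10 ± 0.14).

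The Gimap genes, a cluster of GTPases linked to lymphocyte survival, were called higher in all 8 tested cases, against 21.7% of all tested genes. Each change was under 2-fold (median 0.56). Gimap3 was at 390.2 and 408 FPKM in DKO, against 217 and 211 FPKM in WT (0.90 ± 0.07), Gimap6 at 262 and 268 FPKM in DKO, against 172 and 182 FPKM in WT (0.58 ± 0.05), and Gimap1 at 220.0 and 210.2 FPKM in DKO, against 144 and 142 FPKM in WT (0.58 ± 0.06). The DKO libraries were above both WT libraries for each of these. The call of Gimap7 ended without DKO replicate 1 (limma adjusted p = 0.115), WT replicate 1 (0.145) or WT replicate 2 (0.065), and the number called ranged from 6 to 8 with 1 library left out. Under median and quantile scaling all 8 were again called higher.

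Adhesion and cytoskeletal genes changed in both directions. The integrin chains Itga4 (101 and 119 FPKM in DKO, against 46.5 and 46.7 FPKM in WT, 1.22 ± 0.08) and Itgb3 (28 and 32.5 FPKM in DKO, against 8.56 and 11 FPKM in WT, 1.54 ± 0.14) rose, and so did Cd47, the "do not eat me" ligand (179 and 197 FPKM in DKO, against 89.8 and 93.6 FPKM in WT, 1.02 ± 0.06). Both chains of LFA-1 fell, with Itgal at 104 and 102 FPKM in DKO, against 164 and 176 FPKM in WT (-0.72 ± 0.05) and Itgb2 at 146 and 149 FPKM in DKO, against 188 and 201 FPKM in WT (-0.40 ± 0.06). Actn1, an actin crosslinker, was at 25.7 and 27.6 FPKM in DKO, against 159 and 157 FPKM in WT (-2.53 ± 0.06), whereas its relative Actn2 was at 22.1 and 22 FPKM in DKO, against 7.86 and 7.61 FPKM in WT (1.40 ± 0.10). The formin Fmnl3 was at 7.82 and 8.61 FPKM in DKO, against 26.7 and 27.6 FPKM in WT (-1.61 ± 0.07). The myosin Myo1f was at 29.2 and 34.3 FPKM in DKO, against 12.2 and 13.3 FPKM in WT (1.25 ± 0.09). Arhgef18 (161 and 162 FPKM in DKO, against 77.4 and 72.5 FPKM in WT, 1.10 ± 0.05) and Arhgap25 (56.1 and 55.2 FPKM in DKO, against 24.8 and 23.6 FPKM in WT, 1.17 ± 0.05), which encode an exchange factor and an activating protein for small GTPases, both rose.

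Of 52 tested lysosome genes 16 were higher and 9 lower, against 21.7% and 27.8% of all tested genes. The 48.1% called was near the 49.5% of all tested genes. Among single members, the protease genes Ctsd (375 and 357 FPKM in DKO, against 191 and 191 FPKM in WT, 0.93 ± 0.04) and Ctsl (15.9 and 14 FPKM in DKO, against 6.64 and 6.28 FPKM in WT, 1.09 ± 0.09) rose. The lipid-handling genes Lipa (17.5 and 15 FPKM in DKO, against 36.3 and 35.3 FPKM in WT, -1.10 ± 0.08) and Npc2 (61.3 and 55.2 FPKM in DKO, against 108 and 106 FPKM in WT, -0.87 ± 0.06) fell. No contrast between these 2 kinds of gene was tested. Arsb, the arylsulfatase that trims dermatan sulfate, was at 0.99 and 1.25 FPKM in DKO, against 7.33 and 8.46 FPKM in WT (-2.07 ± 0.11). Chst15, a chondroitin sulfotransferase, was at 2.19 and 1.48 FPKM in DKO, against 11.1 and 11 FPKM in WT (-2.10 ± 0.14). Galnt4, which starts O-linked glycans, was at 23.8 and 24.3 FPKM in DKO, against 4.04 and 3.26 FPKM in WT (2.43 ± 0.10). B4galt1, a galactosyltransferase, was at 106 and 112 FPKM in DKO, against 45.7 and 45.5 FPKM in WT (1.24 ± 0.06). Lgals1, a galectin, was at 132 and 118 FPKM in DKO, against 249 and 255 FPKM in WT (-1.01 ± 0.06). Of the drug efflux pumps, Abcb1b was at 0.92 and 0.98 FPKM in DKO, against 7.48 and 8.26 FPKM in WT (-2.18 ± 0.10) and Abcb1a changed by -1.78 ± 0.11, 2 close copies whose reads can be shared.

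Some gene groups differed between the DKO libraries themselves. The median difference between the DKO libraries was 0.114 on the log2 scale and that between the WT libraries 0.0708, and 108 tested genes differed at least 2-fold within DKO, against 74 within WT. Of the 641 genes called at least 2-fold, 15 were among those 108. The chaperone list summed to 5240.0 and 3550.0 FPKM in the DKO libraries, against 4676 and 4713 FPKM in the WT libraries, and the heat shock protein gene Hsph1 was at 90.1 and 18.8 FPKM in DKO, against 35.4 and 34.2 FPKM in WT with no call (adjusted p = 0.801). Interferon regulated genes summed to 2644 and 2174 FPKM in the DKO libraries, against 2905 and 2951 FPKM in the WT libraries. Their counts, 8 higher and 21 lower of 57, made 50.9% called, against 49.5% of all tested genes, and followed single libraries: 34 were lower without DKO replicate 1, 8 without WT replicate 1, 7 without WT replicate 2 and 5 without the filter on low values. Ifi30, a thiol reductase of antigen processing (1.38 and 1.88 FPKM in DKO, against 10 and 11.8 FPKM in WT, -2.18 ± 0.14), kept its call throughout, as did the MHC class II chaperone gene H2-DMa (6.73 and 4.61 FPKM in DKO, against 24.7 and 22.6 FPKM in WT, -1.90 ± 0.15).

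Some called genes at least 2-fold changed were neighbours among the tested genes. Going by gene order in the GRCm38.p6 annotation, with genes outside the test skipped, 13 runs of at least 3 such neighbours shared a direction. Over all tested genes 3.61% were called at least 2-fold higher and 5.87% lower, and no expected number of runs was computed. Genes after Pcsk5 are absent from the table, so genes in a run need not be adjacent in the genome. Il1rl2, Il18r1 and Il18rap, which encode interleukin-1 family receptor chains, were all higher. Il1rl2 was at 8.3 and 9.34 FPKM in DKO, against 2.82 and 3.35 FPKM in WT (1.27 ± 0.12). Il18rap was at 4.2 and 2.88 FPKM in DKO, against 0.55 and 0.69 FPKM in WT (1.47 ± 0.17). Il18rap passed the filter on low values only through libraries other than WT, which partly set its direction. Adora2a, Gucd1, Lrrc75b, Ggt1 and Ggt5 formed a run of 5 higher genes, in which Lrrc75b was at 17.9 and 23.6 FPKM in DKO, against 2.98 and 3.19 FPKM in WT (2.40 ± 0.15). Fignl1, Ddc, 2810442I21Rik and Fbxo48 formed a run of lower genes, as did Abhd14a, Abhd14b and Pcbp4, with Abhd14a at 1.51 and 1.65 FPKM in DKO, against 7.25 and 7.69 FPKM in WT (-1.72 ± 0.08). The 3 runs of histone genes on chromosome 13 were all lower, and histone genes can share reads. On either side of Lef1, Ostc was at 60.6 and 58.3 FPKM in DKO, against 71 and 73.7 FPKM in WT (-0.28 ± 0.05) and Hadh at 16.7 and 18.5 FPKM in DKO, against 20.8 and 21.1 FPKM in WT (-0.24 ± 0.08). The call of Hadh (limma adjusted p = 0.0468) ended when any library other than DKO replicate 2 was left out, with adjusted p from 0.0511 to 0.178. Beyond Ostc, Ccdc109b, which encodes a subunit of the mitochondrial calcium uniporter, was at 0.31 and 0.17 FPKM in DKO, against 4.14 and 4.57 FPKM in WT (-2.11 ± 0.13). Overlapping transcripts of neighbours were not separated in the table.

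**Figure D5:**
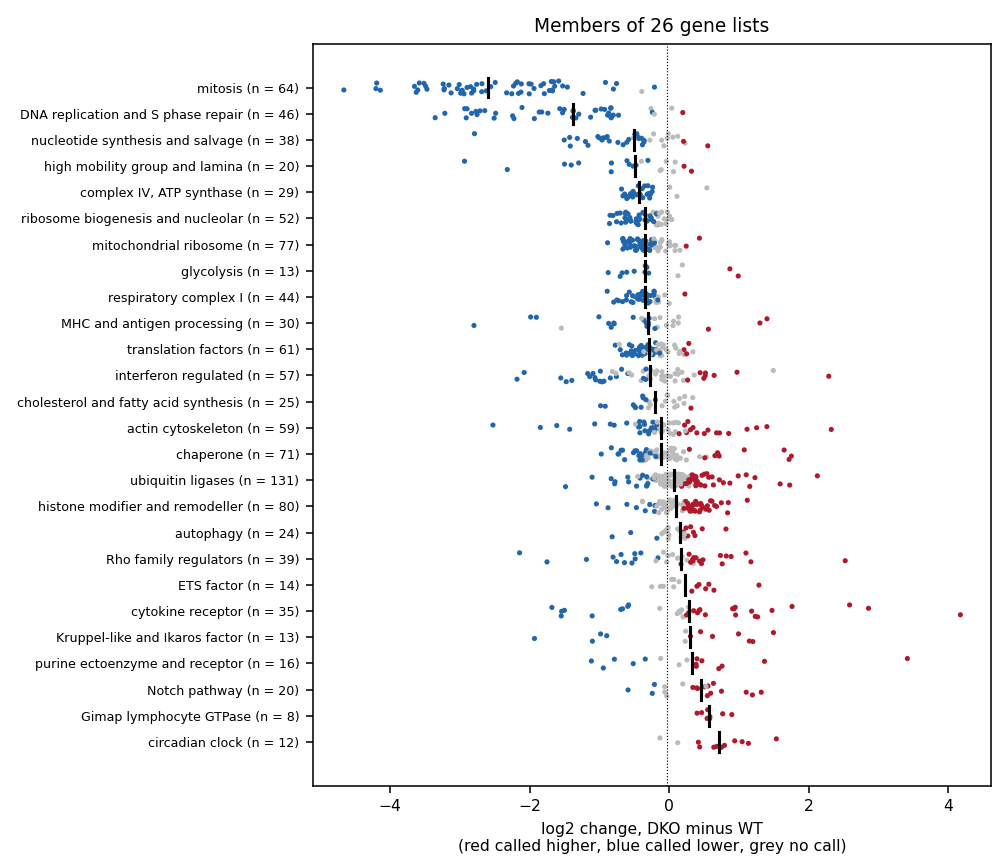
Log2 change (DKO minus WT) of every tested member of 26 gene lists, with called rises in red, called falls in blue and uncalled members in grey. The black bar is the list median and the dotted line the median of all tested genes (-0.03). Mitosis (median -2.59) and DNA replication (-1.38) lie lowest, and the circadian clock (0.71) and Gimap (0.56) lists lie highest.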

How the data were processed

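Mature CD8 thymocytes of 3 genotypes were profiled by RNA-seq, with 2 libraries each. The authors deposited 1 FPKM column per library, rounded to 2 decimals. The submitters' processing notes list the build mm9, with RSEM 1.2.21 and FastQC. The sources used here name no aligner, annotation or filter. Because RSEM shares out reads with several matches, near-identical genes have uncertain values. The table lists genes up to Pcsk5, and sums over it are not library totals. In it 13 symbols stood as dates, and these were restored from the accession in the same row.

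The test covered 6761 genes that reached 1 FPKM in 2 or more of the 6 libraries, and 9622 were not tested. Values were taken as log2 after adding 1. A model of genotype alone, over all 6 libraries, was fitted with limma 3.58.1 in R 4.3.3 using moderated variances with a trend, leaving 3 residual degrees of freedom. Benjamini-Hochberg adjustment ran over all tested genes, with a threshold of 0.05. The procedure was run on simulated data with independent noise and far fewer changed genes than were called here. That run does not measure the error of the calls in these data. Read counts were not analysed here. Depth was gauged from low values of short genes, with lengths of GENCODE vM21 transcripts between 400 and 1000 bases. A fragment length of 200 bases was assumed. The depth that best fitted whole fragments was taken, about 51000000 to 62000000 fragments per library. At that depth 1 FPKM on a transcript of 2000 bases would rest on 102 to 124 fragments. Between 62.2% and 71.2% of those low values lay within 0.25 of a whole fragment. The choice of depth partly set this share, and evenly spread values would also often lie that close. The depths are therefore rough, and no interval was computed from them.

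Genes named in the text are Lef1, the 30 largest rises and 30 largest falls whose libraries do not overlap (provisional models and well known lineage genes left out), up to 4 called members in each direction of each gene list, and up to 2 abundant members of a list with none called. In addition 27 genes were given with values, and neighbours in runs named, after their values were seen, to complete families, pathways and checks. Some of the genes so chosen are not reported here. The members and gene lists were chosen with earlier results of these data known, so list counts and medians are descriptions and no list was tested. Promoter sequences are from RefSeq on GRCm38.p6, a later assembly than mm9, whose tables also gave gene names and gene order. Of the 16383 gene identifiers, 16340 matched it. Alternatives were pseudocounts of 0.1 and 0.5, no filter and a filter of 5 FPKM, median and quantile scaling, no variance trend, DKO and WT libraries only, a replicate block, and leaving out each library in turn.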

Additional observations from a re-analysis of the deposited data

How the results depend on the processing

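With 1 library left out, between 878 and 1358 genes were higher and between 1188 and 1760 lower in DKO, against 1465 and 1880 with all libraries, and at least 2-fold calls ranged from 239 to 272 higher and from 383 to 416 lower. The counts moved by more than 1.5 times only without a WT library: without WT replicate 1 951 genes were higher, and without WT replicate 2 878 were higher and 1188 lower. Where a group was left with 1 library, that library is assumed to vary like the other groups. With no filter on low values, 1164 genes were higher and 1472 lower. Median scaling gave 1781 higher and 1617 lower and quantile scaling 1817 and 1626, so that the larger direction turned. A pseudocount of 0.1 gave 343 higher and 513 lower genes at least 2-fold. Of 435 named calls, 352 held under every alternative that tested them, 69 ended when some library was left out, and no called change reversed. List counts of 0 to 3 in the rarer direction moved by up to 3 genes with 1 library left out. Deviations of same-numbered libraries correlated weakly, at 0.1545 (DKO and WT), 0.1469 (DKO and Tcf1 KO) and 0.04543 (Tcf1 KO and WT). Whether the replicate numbers pair the libraries cannot be told from these values. With the replicate block 1583 genes were higher and 1988 lower. The causes of these shifts were not tested.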
